A study of Mus musculus with 10 samples.

Results

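Microglia of wild-type (WT) mice that had returned to normal food for 2 weeks after a cuprizone diet were compared with microglia of WT mice that never received cuprizone. The comparison rests on 3 of the 10 microarray libraries of the series, taken by their titles: 1 recovery library after 4 weeks of cuprizone (4+2 weeks), 1 recovery library after 12 weeks (12+2 weeks) and 1 untreated control. All 3 came from C57BL/6 males of 8 to 12 weeks of age, and the diet held 0.2% cuprizone. The other 7 libraries were 2 of WT mice still on cuprizone, for 4 and 12 weeks, and 5 of Trem2-/- mice under the same 5 conditions; they entered the fits as sources of spread and as comparisons. Trem2-/- mice lack a lipid-sensing receptor of microglia. The labels say neither how many mice gave each library nor which surface markers guided the cell sort. They do not say whether the age is that at the start of the diet. Each value is a log2 intensity unless called a difference, and a difference is recovery minus control unless stated otherwise.

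Cuprizone in the food kills oligodendrocytes, the cells that make myelin, so that axons lose their sheaths. Once the diet ends, precursor cells mature into new oligodendrocytes and myelin re-forms, while microglia, the resident macrophages of the brain, clear myelin debris. Debris-laden microglia are known for the genes of lipoproteins, lipid uptake and lysosomal digestion that also mark microglia around amyloid plaques, called disease-associated microglia. Resting microglia are known instead for a homeostatic set that includes the purine receptor P2ry12 and the membrane protein Tmem119.

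No label gives a batch or a date. The submitters' sample numbers form a lower range of 6 arrays, which holds both controls and every library titled 4 weeks, and a higher range of 4 arrays, which holds every library titled 12 weeks. Whether the ranges were processed apart is not stated, and they coincide with titled duration, so that feeding time and anything else that goes with the numbers cannot be told apart at 12+2 weeks. Across all probes the log2 values of the 4+2 library correlated with the control at r = 0.990 and those of the 12+2 library at r = 0.977 (1 pair of arrays each, across probes, which are not replicates). Median intensities of the arrays lay between 37.6 and 39.3. All 9 microglia markers on the array lay above 5.27, the log2 median of the table, in every library, and Trem2 stood at 10.67 (4+2 weeks), 10.66 (12+2 weeks) and 10.72 (control).

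Counted by size alone, 89 of 10792 genes (0.825%) lay at least 2-fold above the control at 4+2 weeks and 13 (0.12%) lay at least 2-fold below it. At 12+2 weeks 272 genes (2.52%) lay above and 202 (1.87%) below by that much. These are counts of 1 library against 1 other and carry no test, and both durations use the same control. Nearest to the 2-fold limit, which is 1 on the log2 scale, were Gpx3 at 1.004 inside it and Anxa1 at 0.997 outside it among higher values at 4+2 weeks. In the other genotype a different contrast was looked at, the mean of arrays titled 12 weeks minus that of arrays titled 4 weeks. It left out the control and took in the arrays on cuprizone. Among the arrays titled 12 weeks was 1 labelled 4 weeks. In Trem2-/- microglia the 12-week arrays exceeded the 4-week arrays by at least 2-fold for 83 of the 272 higher genes (30.5%), against 131 of all 10792 genes (1.21%). The Trem2-/- arrays enter neither WT difference. They did help decide, with the other arrays, which genes were bright enough to be counted, so the contrast is not independent of the counts. For the 202 lower genes the Trem2-/- arrays differed that way in 50 (24.8%), against 1.02% of all genes. Of the 89 genes higher at 4+2 weeks, 5 (5.62%) differed to the higher side in the Trem2-/- arrays, against 1.21% of all genes. Of the 13 lower at 4+2 weeks, 2 (15.4%) differed to the lower side, against 1.02% of all genes.

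Taken as a group of 2, the recovery libraries gave no gene past an adjusted p of 0.05 in either direction (0 higher, 0%, and 0 lower, 0%, limma over 6 group means with 4 residual degrees of freedom). At an unadjusted p under 0.05 there were 171 higher genes (1.58%) and 71 lower genes (0.658%), and the smallest adjusted p was 0.100, for Gpnmb. With titled duration as a block, which takes out the mean difference between the 4-week and 12-week arrays, 18 genes were higher (0.167%) and 1 was lower (0.00927%). The count was 1, Gpnmb, when the Trem2-/- library titled 12 weeks but labelled 4 weeks was counted as 4 weeks. With single libraries left out, the blocked count of higher genes ran from 3 to 20, and Gpnmb and Ms4a4a were called in 9 of 9 such fits. It was 20 without the 4+2 library and 18 without the Trem2-/- control. It was 3 or 4 in each of the other 7 fits, which left out a library on cuprizone, a Trem2-/- recovery library or the 12+2 library. In bulk samples a change in the RNA of each microglial cell and a change in the share of cells that express a gene cannot be told apart.

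Of the 12 genes farthest above the control in both recovery libraries, 5 (Apoc1, Lpl, Ch25h, Apoe and Olr1) handle lipoproteins or lipids. Apoc1, an apolipoprotein, had the largest estimate of the 12. It stood at 7.43 (4+2 weeks) and 7.94 (12+2 weeks), against 4.26 in the control. The control lay below the table's median, so the size of the gap is uncertain. The estimate of 3.42 ± 0.48 (SE) did not pass in limma (adjusted p = 0.352) but did with titled duration as a block (3.46, adjusted p = 0.042). With 16 intensity units added it was 2.66. Apoe, the main lipid carrier made by glia, was among the brightest genes at 12.57 (4+2 weeks) and 12.73 (12+2 weeks), against 10.62 in the control, a difference of 2.03 ± 0.29 (adjusted p = 0.352, or 0.042 with the block). Both libraries lay far above the control for both genes, and those of Apoe lay close to each other.

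Lpl, which frees fatty acids from lipoproteins, stood at 7.79 and 8.23 in the 4+2 and 12+2 libraries, against 5.49 in the control. Ch25h, which makes 25-hydroxycholesterol, stood at 5.91 and 7.25 in those libraries, against 4.26 in the control. Olr1, a receptor for oxidised lipoproteins, stood at 5.39 and 6.43, against 3.92 in the control. For Ch25h and Olr1 the 12+2 library was the higher by over 1 on the log2 scale, whereas Lpl was close in both. The adjusted p with the block was 0.078 for Lpl, 0.631 for Ch25h and 0.0495 for Olr1. Fabp5, a fatty acid carrier, stood at 7.89 and 7.90 in the recovery libraries, against 6.05 in the control (1.84 ± 0.32, adjusted p = 0.557, or 0.042 with the block). A second, dimmer probe of Fabp5 differed by 2.12 and 2.87.

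Gpnmb, a glycoprotein of lysosomes in phagocytes laden with lipid, had the smallest p of all genes. It stood at 6.83 (4+2 weeks) and 6.64 (12+2 weeks), against 3.82 in the control. The difference was 2.91 ± 0.30 (adjusted p = 0.100), and 3.06 ± 0.22 with the block (adjusted p = 0.0015). The control lay below the table's median and near background, as it did for 5 of the 12 genes farthest above the control (Apoc1, Gpnmb, Mmp12, Ch25h and Olr1), so the size of these differences is uncertain. With 16 intensity units added the estimates were 2.02 for Gpnmb, 2.23 for Mmp12, 1.69 for Ch25h and 1.30 for Olr1. Its promoter is shown because Gpnmb led the test. RefSeq places it on GRCm38.p6 at chr6:49036268-49036567 on the + strand, from 250 bases before to 50 after the gene's start, and the capitals mark a match to TGACTCA, the AP-1 motif.
Gpnmb: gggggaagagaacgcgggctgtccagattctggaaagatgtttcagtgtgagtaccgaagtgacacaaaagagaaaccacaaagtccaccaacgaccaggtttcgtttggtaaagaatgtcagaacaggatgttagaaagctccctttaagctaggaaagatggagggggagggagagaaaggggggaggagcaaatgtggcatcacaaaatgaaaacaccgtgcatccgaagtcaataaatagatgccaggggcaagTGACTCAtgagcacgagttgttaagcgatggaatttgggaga
TGACTCA, searched on both strands, occurs in 5.20% of 32851 RefSeq promoters of this length. By gene, 1607 of 27025 hold it in at least 1 promoter. Of the 12 genes, 10 have a promoter there and 3 of these (Gpnmb, Mmp12 and Olr1) hold it in at least 1 promoter, which is 3 of 14 promoters. In Gpnmb it begins 8 bases after the annotated start. The motif was settled on after matches in these promoters had been seen. A match describes letters in the window and not binding.

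Other genes high in both recovery libraries serve uptake, matrix digestion, growth signals and prostaglandin synthesis. Mmp12, the macrophage elastase, stood at 7.25 and 8.10 in the 4+2 and 12+2 libraries, against 4.97 in the control (2.71 ± 0.51, adjusted p = 0.557, or 0.045 with the block). Axl, a receptor for apoptotic cells, stood at 7.23 and 7.65, against 5.43 in the control (2.01 ± 0.30, adjusted p = 0.378, or 0.045 with the block). Igf1, a growth factor for oligodendrocytes, stood at 7.35 and 7.65, against 5.46 in the control, and passed in neither fit (2.03 ± 0.47, adjusted p = 0.999, or 0.116 with the block). In these 3 genes the recovery libraries lay nearer to each other than to the control.

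Ptgs2, the inducible enzyme of prostaglandin synthesis, differed more between durations, with 8.84 at 4+2 and 10.11 at 12+2 weeks, against 7.23 in the control. Its estimate was 2.25 ± 0.92 without the block and 1.51 ± 0.21 with it (adjusted p = 0.999 and 0.045). Clic4, an intracellular chloride channel protein, stood at 8.72 and 10.01 in the recovery libraries, against 7.20 in the control (adjusted p = 0.065 with the block). Both genes were also high in the 12-week library on cuprizone (10.77 for Ptgs2 and 10.41 for Clic4), whose sample number is in the higher range. Ptger4, a receptor for prostaglandin E2, stood at 7.71 and 8.68, against 6.45 in the control, and passed with the block (1.28, adjusted p = 0.045).

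G530011O06Rik stood at 11.59 (4+2 weeks) and 11.76 (12+2 weeks), against 9.51 in the control (2.17 ± 0.64, adjusted p = 0.999, or 0.045 with the block). RefSeq's promoter table lists this locus on both the X and the Y chromosome. Its levels in the 5 Trem2-/- libraries were far lower, from 4.81 to 6.48. Genes outside the rule for the farthest 12 that passed with the block were, beside Fabp5 and Ptger4, Ms4a4a (2.27), Cst7 (2.04), Myo5a (1.80), Ms4a7 (1.71), Pla2g7 (1.62), Ccl7 (1.48), Gpr65 (1.48) and Arhgap19 (1.32), with adjusted p from 0.0241 to 0.0495; they are named here after their values were seen. For 2 of them the estimate without the block, 1.42 for Ms4a4a and 1.25 for Pla2g7, depended on which recovery library was used. With 1 recovery library left out it ran from 0.59 to 2.25 for Ms4a4a and from 0.71 to 1.79 for Pla2g7. These ranges do not describe the blocked estimates. Myo5a is a vesicle motor, Pla2g7 hydrolyses oxidised phospholipids, Gpr65 senses acid and Ccl7 attracts monocytes. Myo5a stood at 7.28 and 7.26 in the recovery libraries against 5.67 in the control, and Gpr65 at 8.74 in both against 7.34.

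Lower values in both recovery libraries were fewer. Only 6 genes met the rule of lying at least 2-fold below the control at both durations, and all 6 are named here. Nav3, a microtubule-binding neuron navigator protein, stood at 8.62 and 8.26, against 9.71 in the control (-1.27 ± 0.28, adjusted p = 0.999, or 0.119 with the block). Adamts16, a secreted metalloprotease, stood at 5.57 and 5.63, against 6.85 in the control (-1.25 ± 0.32, adjusted p = 0.999). Tfb2m, a mitochondrial transcription factor, stood at 5.88 and 6.20, against 7.37 in the control, and was the 1 gene lower with the block (-1.37, adjusted p = 0.045). A second Tfb2m probe of similar brightness differed by 0.17 and 0.14, on the other side, so the 2 probes disagree. S100a4 (6.14 and 4.33, against 7.44 in the control), H3c4 (5.18 and 5.13, against 6.53) and the NK cell receptor gene Klrd1 (5.96 and 5.74, against 7.16) passed in neither fit. S100a4 is also on the monocyte marker list, and the part of monocytes in its lower values was not tested.

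**Figure D1:**
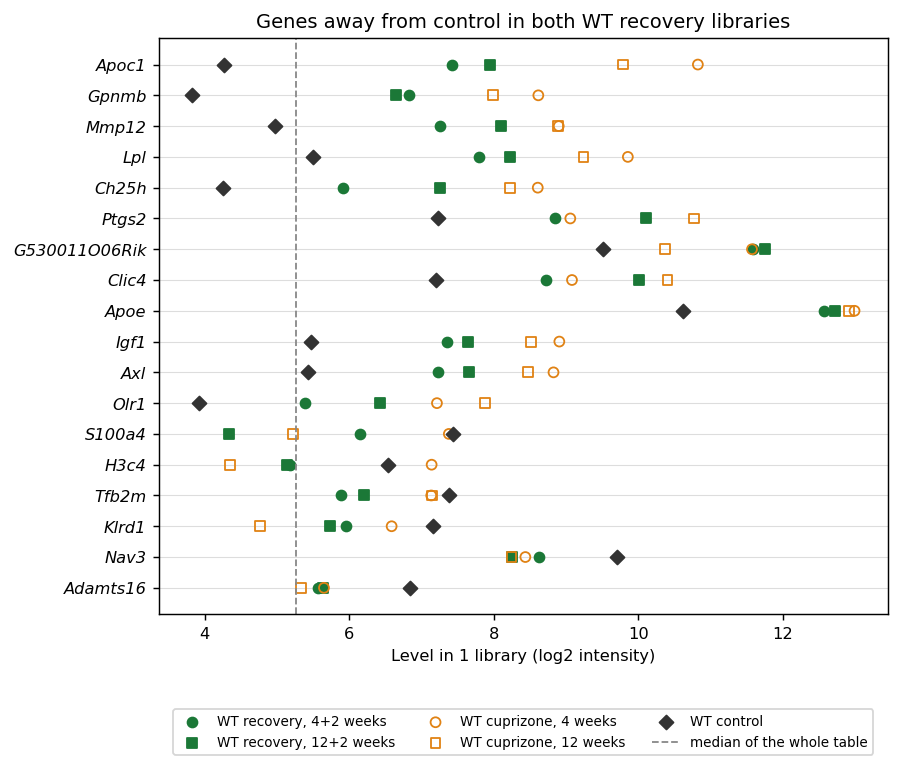
Levels (x axis, log2 intensity) of the 18 genes farthest from the control in both WT recovery libraries, 1 point per library, with WT libraries on cuprizone as open symbols and the table's median as a dashed line. Apoc1 stood at 7.43 and 7.94 in recovery against 4.26 in the control, and for most of the upper 12 genes the recovery points lie between cuprizone and control, with G530011O06Rik as an exception.

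**Figure D2:**
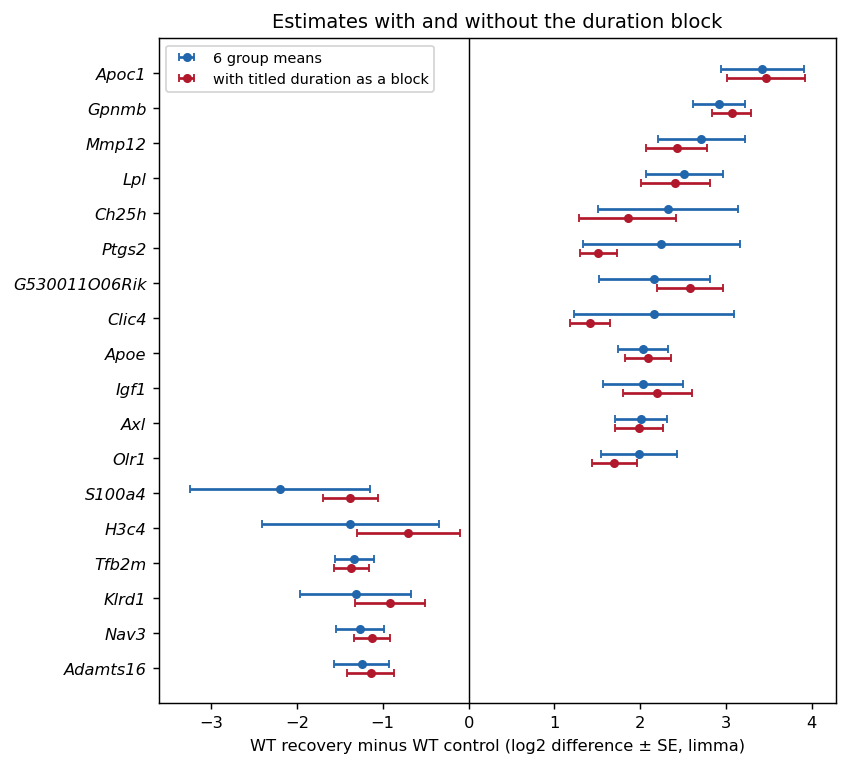
Estimates of WT recovery minus WT control (x axis, log2 difference) with SE bars from limma for the same 18 genes, from 6 group means and with titled duration as a block. The bar of Ptgs2 has an SE of 0.92 without the block and 0.21 with it, and the estimate of Gpnmb stays near 3.

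Members of the disease-associated microglia list stood at different distances from the control after recovery. Of 31 tested members (32 in the list), 13 were at least 2-fold above the control at 4+2 weeks and 15 at 12+2 weeks, against 0.825% and 2.52% of all genes, and 0 were 2-fold below it. limma called 0 members and, with the block, 6 (Apoc1, Gpnmb, Apoe, Axl, Cst7 and Fabp5), against 0.167% of all genes. The median difference was 0.74 at 4+2 weeks and 0.95 at 12+2 weeks, where the median of all genes tested was 0.02 and -0.02. This and the other lists were chosen with earlier results of these data known. Their counts beside the shares of all genes are therefore descriptions and not tests. The lysosomal protease inhibitor Cst7 stood at 8.71 (4+2 weeks) and 8.31 (12+2 weeks), against 6.81 in the control. Clec7a, the beta-glucan receptor, stood at 7.87 and 8.35, against 6.23 in the control, and the integrin Itgax at 6.38 and 6.78, against 5.20 in the control.

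Members at the other end lay close to the control. The cathepsin Ctsd differed by 0.02 at 4+2 weeks, and the tetraspanin Cd9 stood at 11.44 and 10.93, against 11.31 in the control. Set beside the libraries on cuprizone of the same titled duration, 30 of the 31 members were lower in recovery at 4 weeks (median recovery minus cuprizone -1.07) and 28 at 12 weeks (median -0.68), where all genes had medians of -0.02 and -0.01. Over both durations limma called 0 genes in recovery against cuprizone (235 lower, 2.18%, and 60 higher, 0.556%, at an unadjusted p under 0.05). With the block 7 were lower (0.0649%) and 0 higher: Apoc1 (-2.63), Itgax (-1.95), Cst7 (-1.94), Olr1 (-1.64), Gpnmb (-1.56), Mamdc2 (-1.56) and Plac8 (-1.55). Apoe differed little from its level on the diet (-0.31 ± 0.24, adjusted p = 0.999, or 0.730 with the block). Apoc1 stood at 7.43 and 7.94 in recovery, against 10.83 and 9.79 on cuprizone, whereas Apoe stood at 12.73 in the 12+2 library, against 12.92 in the 12-week library on cuprizone.

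**Figure D3:**
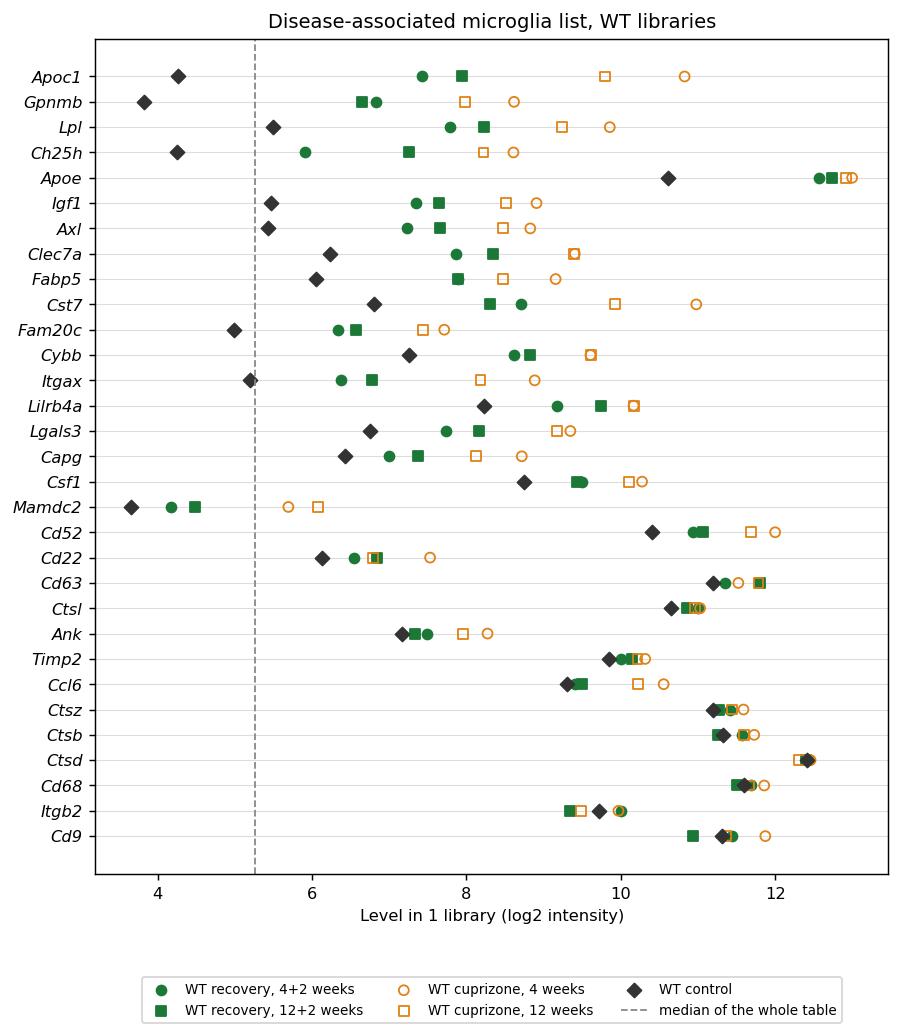
Levels (x axis, log2 intensity) of the 31 tested members of the disease-associated microglia list in the 5 WT libraries, 1 point per library, ordered by the estimate of recovery minus control. Members at the top, such as Apoc1 and Gpnmb, lie between cuprizone and control after recovery. Of the lower members, Ctsd lies near the control in all 5 libraries. Ccl6 lies near it in recovery but higher on cuprizone (recovery minus cuprizone -1.15 at 4 weeks and -0.72 at 12 weeks).

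Among the 19 tested genes of lipoproteins, cholesterol efflux and lipid storage (26 in the list), 8 were at least 2-fold above the control at 4+2 weeks and 7 at 12+2 weeks, against 0.825% and 2.52% of all genes, with 0 below. limma called 0, and 4 were called with the block (Apoc1, Apoe, Fabp5 and Olr1), against 0.167% of all genes. Apoe, Apoc1, Lpl, Ch25h and Fabp5 are also on the disease-associated list, so these counts largely repeat the same genes. The scavenger receptors Msr1 (1.29 and 0.98) and Cd36 (1.31 and 0.88) and the lipid droplet coat gene Plin2 (0.90 and 1.20) also lay above the control at 4+2 and 12+2 weeks. Abca1, the cholesterol exporter, differed by 0.31 and -0.17. Of 18 cholesterol synthesis genes 0 were called, and 1, the sterol oxidase Msmo1, lay 2-fold above the control at 12+2 weeks (7.72, against 6.28 in the control) but not at 4+2 weeks (6.32).

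Of 28 lysosome genes 0 were called in either fit, and their medians were 0.15 at 4+2 weeks and -0.06 at 12+2 weeks. The proton pump subunit Atp6v0d2 stood apart, at 4.92 and 6.37, against 3.94 in the control. Its 4+2 and control values lay below the table's median, so the size of the gap is uncertain. Of 23 phagocytic receptor genes, 7 lay 2-fold above the control at 4+2 weeks and 4 at 12+2 weeks, against 0.825% and 2.52% of all genes. limma called 0 of them, and Axl and Olr1 passed with the block. The 7 are not separate from other lists. Axl, Clec7a, Olr1, Msr1 and Cd36 are also on the disease-associated or lipid lists. Mrc1 and Cd209f are border macrophage markers, at -0.01 and -0.67 at 12+2 weeks. Complement genes gave 0 calls among 10 tested, with medians of 0.20 and 0.08. The component C3 was not examined. Its entry was matched through a synonym to Olfr48, which is not a complement gene and was too dim to test.

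Homeostatic genes lay near the control at 4+2 weeks. Their 28 tested members had a median difference of -0.02, with 11 above and 17 below, and 0 were 2-fold away. At 12+2 weeks the median was -0.31, with 27 below the control and 1 above, and 1 member, Sall1, was 2-fold lower. limma called 0 in either fit, and with the block the median was -0.04. P2ry12 stood at 11.01 and 11.03, against 11.46 in the control, nearly the same in both recovery libraries (-0.44 ± 0.22, adjusted p = 0.999). Sall1, a transcription factor of microglial identity, stood at 10.37 and 9.67, against 10.75 in the control, and the lectin Siglech at 11.72 and 11.13, against 11.93. Tmem119 stood at 11.40 and 10.83, against 11.33 in the control, so its 2 recovery values lay on either side of it.

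Cytokines and chemokines lay farther above the control at 12+2 weeks. Of 26 tested members, 4 were 2-fold above the control at 4+2 weeks and 10 at 12+2 weeks, against 0.825% and 2.52% of all genes. Their medians were 0.15 and 0.75. limma called 0, and 1 passed with the block (Ccl7, at 10.56 and 10.34 against 9.09 in the control). The neutrophil attractant Cxcl2 was alike at both durations, with 10.47 and 10.61 against 8.92 in the control (1.62 ± 0.43, adjusted p = 0.999, or 0.145 with the block). Il1b stood at 10.69 and 11.44, against 9.51 in the control. Ccl5, which attracts T cells, stood at 7.26 at 4+2 weeks and 9.57 at 12+2 weeks, against 7.40 in the control.

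Interferon response genes had medians of 0.28 and 0.47, with 1 of 26 members 2-fold above the control at 4+2 weeks (Ifi207, an interferon-inducible gene, at 1.05) and 7 at 12+2 weeks, against 0.825% and 2.52% of all genes. In either fit 0 were called. Ifi207 stood at 8.85 and 9.31, against 7.80 in the control. Ifit1, an RNA-binding antiviral gene, stood at 4.19 and 5.73, against 4.35 in the control, with the 4+2 and control values below the table's median. MHC class II genes, which present antigen to helper T cells, had medians of -0.34 and -0.36 with 0 of 9 called. H2-Eb1 stood at 8.57 and 7.70, against 8.95 in the control. MHC class I and peptide loading genes had medians of 0.14 and 0.08 with 0 of 11 called and 0 past 2-fold.

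Growth and metabolic lists gave 0 calls in either fit. Trophic factors (9 tested) had medians of 0.04 at 4+2 and 0.59 at 12+2 weeks, with Igf1 2-fold above the control at both and Osm, a cytokine of the interleukin 6 family, at 0.67 and 1.36. Of 15 cell cycle genes, the helicase subunit Mcm7 differed most (5.51 and 5.17, against 4.25 in the control) and the median was -0.01 and 0.12. The 12+2 and control values of Mcm7 lay below the table's median, so the size of its gap is uncertain. The glycolysis list (15 tested) had medians of 0.27 and 0.16, with the glucose transporter Slc2a1 at 0.61 and 1.18. Among these 15, Pigq (-0.27 and 0.11) entered through a synonym in place of Gpi1 and is not a glycolysis gene. The medians include it. Immediate early genes (22 tested) had medians of 0.04 and 0.02, with 0 past 2-fold.

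**Figure D4:**
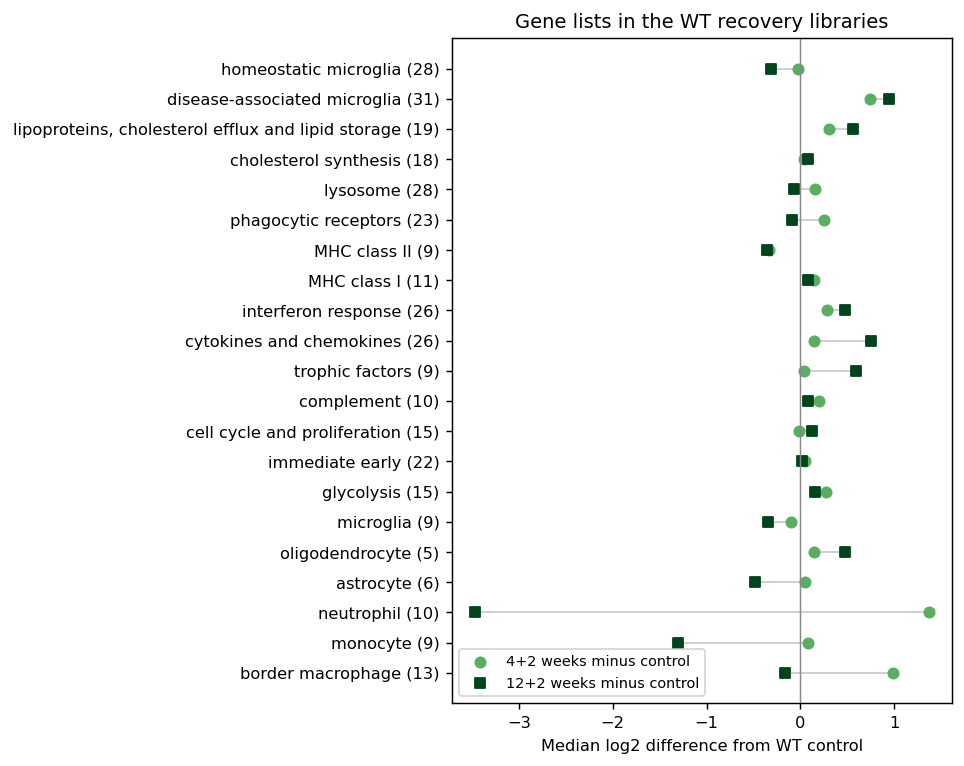
Median log2 difference from the WT control (x axis) of the tested members of each gene list with at least 5 of them, for the 4+2 library (circles) and the 12+2 library (squares), with the number tested in brackets. The disease-associated list lies at 0.74 and 0.95, and neutrophil markers lie on opposite sides at 1.37 and -3.47.

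Neutrophil markers were low in all 12-week libraries. Of 13 neutrophil markers on the array, 10 were tested. At 4+2 weeks 6 of the 10 were 2-fold above the control and at 12+2 weeks 7 were 2-fold below it, against 0.825% and 1.87% of all genes. The medians were 1.37 and -3.47. S100a8, a calprotectin subunit of neutrophils, stood at 12.30 (4+2 weeks) and 3.01 (12+2 weeks), against 11.56 in the control. Summed over the 13 markers, intensity was 14327 at 4+2 weeks and 274 at 12+2 weeks, against 7370 in the control. In all 4 libraries titled 12 weeks that sum lay between 274 and 434, and in the other 6 between 4784 and 14327. The 12+2 library had 12 of the 13 markers below the table's median and the control 4. The part of these cells in other results was not tested.

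Border macrophage markers, which label macrophages of vessels and meninges, differed by a median of 0.98 at 4+2 weeks, with 13 of 13 tested members above the control and 6 of them 2-fold, against 0.825% of all genes. At 12+2 weeks the median was -0.17 with 3 above. Cd163 stood at 7.41 and 5.45, against 5.77 in the control, and Lyve1 at 8.41 and 6.78, against 6.76 in the control. Summed over 14 markers, intensity was 5010 (4+2 weeks) and 2357 (12+2 weeks), against 2656 in the control. It lay between 5010 and 5812 in the 4 libraries fed for 4 weeks and between 2000 and 2660 in the 12-week libraries and both controls. Ms4a4a, called with the block, was likewise higher at 4+2 weeks, at 6.70 and 5.05 against 4.45 in the control, and so was Pla2g7 (7.51 and 6.43, against 5.72). The 12+2 and control values of Ms4a4a lay below the table's median. The part of border macrophages in the calls of Ms4a4a and Pla2g7 was not tested. Ms4a7, on the same list, was above the control at both durations (7.64 and 7.89, against 6.17).

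Monocyte markers had medians of 0.08 and -1.31 (9 tested), with Ccr2 among the lower ones at -0.84 and -1.65. Their summed intensity over 10 markers was 781 (4+2 weeks) and 348 (12+2 weeks), against 625 in the control. The plasma and choroid plexus protein gene Ttr, a transport protein for thyroid hormone, was at 10.95 in the 4+2 library and 5.07 in the 12+2 library, against 6.15 in the control, the largest gap of any tested gene at 4+2 weeks. It was also high in the Trem2-/- 4+2 library, at 9.87. Astrocyte markers had medians of 0.05 and -0.48 (6 tested), led by Aldoc at 5.13 in the 12+2 library against 7.14 in the control. Oligodendrocyte markers had medians of 0.14 and 0.48 (5 tested). Of neuron, endothelial, precursor, T and NK and B cell markers, 1 to 3 genes each were bright enough to test, and of erythroid markers 0.

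Some genes were away from the control after 1 duration and not the other. At 4+2 weeks the farthest such higher genes were Ttr, Lcn2, Mpo, Chil3, Ngp and Lyve1, 3 of them (Lcn2, Mpo and Ngp) from the neutrophil list, 1 (Chil3) from the monocyte list and 1 (Lyve1) from the border macrophage list. The corresponding lower genes were Slc15a2, 4930426L09Rik, Cdk5rap1, Etaa1, Orai2 and Zswim3, at -1.28 to -0.96, of which Orai2 and Zswim3 lie just outside 2-fold. Slc15a2, a peptide transporter, stood at 5.88, against 7.16 in the control. A second Orai2 probe differed by -0.26. At 12+2 weeks the lowest were S100a8, S100a9, Lcn2, S100a6, Ngp and Retnlg, at -8.55 to -3.51.

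The highest genes found only at 12+2 weeks by this rule were Ifnb1, Mir155, Tnfsf9, Cxcl10, Edn1 and Mir19b-1. Ifnb1, the interferon beta gene, stood at 8.99 in the 12+2 library and 4.23 in the 4+2 library, against 4.04 in the control. It lay between 8.49 and 10.43 in all 4 libraries titled 12 weeks and between 4.04 and 4.61 in the other 6, in both genotypes and on or off the diet. Cxcl10, a chemokine induced by interferons, stood at 11.33 and 8.77, against 8.62 in the control, and at 10.76 to 11.63 in the 12-week libraries against 8.23 to 9.79 in the others. Mir155, the gene of a microRNA induced in inflammation, stood at 8.05 and 5.32, against 5.08 in the control, and at 6.85 to 8.28 in the 12-week libraries against 4.55 to 5.49 in the others. The T cell co-stimulator Tnfsf9 stood at 9.78 and 7.16, against 6.89 in the control, with values up to 8.63 outside the 12-week libraries. Edn1, the endothelin precursor, stood at 7.90 and 5.39, against 5.40 in the control. For Ifnb1, Mir155 and Mir19b-1 the control lay below the table's median, so the size of their gaps is uncertain. For Ifnb1, Cxcl10, Mir155 and Edn1 no value of the other libraries reached one of the 12-week libraries. Their blocked estimates lay between 0.17 and 0.40, with adjusted p = 0.9995.

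**Figure D5:**
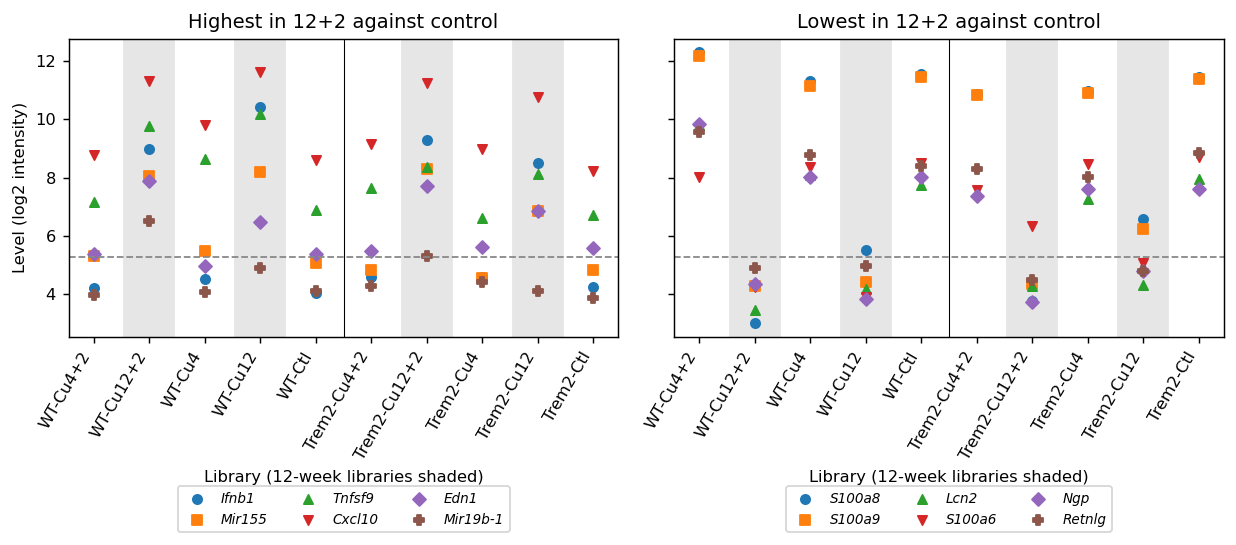
Levels (y axis, log2 intensity) in all 10 libraries of the 6 genes highest (left) and lowest (right) in the 12+2 library against the control that did not differ that way at 4+2 weeks. Shaded columns are the libraries titled 12 weeks, the dashed line is the table's median, and Ifnb1 lies at 8.49 or above in them and at 4.61 or below elsewhere.

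Sequences of members of this 12+2 group are shown because the levels of Ifnb1, Cxcl10 and Mir155 separate the 12-week libraries from the others. Promoters are from RefSeq on GRCm38.p6, at chr4:88522745-88523044 for Ifnb1 and chr5:92348840-92349139 for Cxcl10, both on the - strand and written 5′ to 3′ along the gene. The capitals mark matches to the kappaB consensus motif, which binds NF-kappaB.
Ifnb1: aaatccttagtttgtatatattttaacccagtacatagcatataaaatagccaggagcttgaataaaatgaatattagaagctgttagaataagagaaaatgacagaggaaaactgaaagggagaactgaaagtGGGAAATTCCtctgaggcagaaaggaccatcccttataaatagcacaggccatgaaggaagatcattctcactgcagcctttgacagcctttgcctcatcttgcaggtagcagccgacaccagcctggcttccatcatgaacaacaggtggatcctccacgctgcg
Cxcl10: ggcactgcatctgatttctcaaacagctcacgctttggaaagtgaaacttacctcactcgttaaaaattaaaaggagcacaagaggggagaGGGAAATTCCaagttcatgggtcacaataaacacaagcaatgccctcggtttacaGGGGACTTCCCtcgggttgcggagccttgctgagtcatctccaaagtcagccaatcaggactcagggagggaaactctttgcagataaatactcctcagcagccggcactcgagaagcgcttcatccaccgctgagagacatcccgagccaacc
Matches begin 116 bases before the annotated start of Ifnb1 and 159, 104 and 103 bases before that of Cxcl10, the last 2 overlapping. The motif, searched on both strands, occurs in 8.46% of all 32851 promoters, and 2581 of 27025 genes hold it in at least 1. It too was settled on after matches had been seen. Of the 6 genes, 3 have a promoter in the table, and Edn1 holds no match. Cxcl10 also holds the AP-1 motif, and among the 10 genes of the earlier group with a promoter, Clic4 and Mmp12 hold the kappaB consensus. The mature microRNAs, with the seed of bases 2 to 8 in capitals, have different seeds. Array values are those of the probes annotated to the microRNA genes.
mmu-miR-155-5p: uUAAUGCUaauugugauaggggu
mmu-miR-19b-3p: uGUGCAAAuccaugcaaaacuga
The mature sequences lie at chr16:84714143-84714165 and chr14:115044358-115044380 on the + strand. Mir19b-1 stood at 6.50 in the 12+2 library and 3.99 in the 4+2 library, against 4.11 in the control.

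Whether the WT values differ from those of Trem2-/- microglia was tested as the difference of the recovery-minus-control values. limma called 0 genes, and 0 with the block (48 positive, 0.445%, and 36 negative, 0.334%, at an unadjusted p under 0.05, smallest adjusted p 0.9998, or 0.143 with the block for Gpnmb). Nothing above is therefore shown to be particular to WT cells. Gpnmb stood at 5.24 and 4.90 in Trem2-/- recovery, against 4.64 in the Trem2-/- control, a difference between genotypes of 2.48 ± 0.43. Apoe stood at 12.28 and 12.40 in Trem2-/- recovery, against 10.36 in their control, which gave a genotype difference of 0.05 ± 0.41. Olr1 stood at 3.60 and 3.83 in Trem2-/- recovery, against 3.78 in their control (difference 2.05 ± 0.63, adjusted p = 0.535 with the block). The disease-associated list had medians of 0.29 and 0.42 in Trem2-/- recovery at 4+2 and 12+2 weeks, where WT had 0.74 and 0.95. Lipoprotein and lipid storage genes were also lower in Trem2-/- recovery (0.19 and 0.05, WT 0.31 and 0.56). Cytokines and chemokines were higher there (0.34 and 0.85, WT 0.15 and 0.75). So were interferon response genes (0.36 and 0.52, WT 0.28 and 0.47) and border macrophage markers (1.61 and 0.65, WT 0.98 and -0.17). These gaps between list medians were not tested.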

How the data were processed

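Biotinylated cRNA was made from 2 ng of total RNA of sorted microglia and read on 1-channel arrays, per the labels. The deposited table holds linear intensity values for 24567 probes; how they were summarized, background-corrected and normalized, no label, header or processing note used here says. Log2 was taken with no further scaling. Probes naming 1 gene in the platform annotation (21259, for 19749 genes) were kept, 1274 named several and 2034 were unlisted; 21182 matched RefSeq by Entrez identifier. The brightest probe of a gene was used. Genes with at least 2 arrays above the table's median were tested (10792). limma 3.58.1 in R 4.3.3 (lmFit, eBayes) fitted 6 genotype-by-diet group means, with Benjamini-Hochberg adjustment over all genes tested and a threshold of 0.05; all adjusted p-values come from it. Within a group only the 2 durations give a spread, and the single controls were assumed to vary like the other groups. No replicate animals are named, so p-values measure only the spread between these samples, which may be technical. Depth has no counterpart on arrays; the number of arrays limits precision. The block fit placed controls with the 4-week libraries. The fit was tested on simulated data.

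Genes were named by rule: all those called, or else the 12 largest estimates in each direction among genes at least 1 log2 unit to the same side in both recovery libraries; for each duration and direction the 6 farthest whose other duration differed by under 0.5 to that side; and members of 27 lists. The members and lists were chosen with earlier results of these data known. Sequences come from RefSeq tables of GRCm38.p6, and the motifs were settled on after matches in these promoters had been seen.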

Additional observations from a re-analysis of the deposited data

Results flagged for a closer look

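Among the genes named for the comparison of recovery with control, 3 moved to opposite sides of the control in the 2 genotypes in both recovery libraries, which limma did not call as different (adjusted p = 0.9998 for each, and 0.413 for G530011O06Rik, 0.999 for H3c4 and 0.310 for Tfb2m with the duration block). G530011O06Rik was above its control in WT recovery (2.08 and 2.25) and below it in Trem2-/- recovery (-0.57 and -1.63), a difference of 3.26. H3c4 was below its control in WT recovery (-1.35 and -1.40) and above it in Trem2-/- recovery (1.55 and 0.13), a difference of -2.22. Tfb2m was below its control in WT recovery (-1.50 and -1.17) and above it in Trem2-/- recovery (0.59 and 0.54), a difference of -1.89. Each control is 1 library. The Trem2-/- controls stood lower than the WT control for all 3 genes (6.44 against 9.51, 4.73 against 6.53, and 5.82 against 7.37).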

How the results depend on the processing

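Calls depended on how the 2 durations were handled. In WT recovery against control, limma gave 0 higher and 0 lower genes after subtraction of array medians, quantile normalization, either change of the filter, the mean over probes, 16 added intensity units, an intensity trend, only the WT arrays, and with each library other than the WT control left out (0 to 0 in 9 fits). The titled duration as a replicate block gave 18 higher and 1 lower, and 1 higher with the library of conflicting labels as 4 weeks; an alternative chosen after seeing the data, the block with each library left out, gave 3 to 20 higher and 0 to 1 lower. The block also gave 7 genes lower in recovery than on cuprizone and changed no call in the genotype difference. For both comparisons libraries were left out only in fits without the block, so the 7 calls were not checked in that way. The duration numbers come from titles and pair no animals. Genes past 2-fold moved with 16 added intensity units (54 higher and 8 lower at 4+2 weeks, 104 lower at 12+2 weeks), without the filter (25 lower at 4+2 weeks) and with a limit of 2 on the log2 scale (8 higher and 0 lower at 4+2 weeks, 38 higher and 16 lower at 12+2 weeks). Other settings left these counts within 1.5 times. No estimate of the 28 genes named over both durations changed direction. The cause of each move was not tested beyond the settings' own construction. The WT control is 1 array in every comparison.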
